A study of Mus musculus with 16 samples.

Results

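The miR-193 and miR-365 clusters were followed in whole-lung RNA of BALB/c mice with allergic airways disease. Members were the array rows named miR-193, miR-193a, miR-193b or miR-365 of the mouse, with or without an arm suffix, which gave 4 of the 611 mouse miRNAs on the array. They were miR-193-3p and miR-193-5p (the arms now called miR-193a), miR-193b-3p and miR-365-3p.

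Mice were 8 to 12 weeks old, and all received 1 mg Alhydrogel, an aluminium adjuvant, on day 0. In the PBS/PBS group (2 arrays) it was given without ovalbumin (OVA, the egg-white allergen), and PBS was instilled into the airways. In PBS/OVA (4 arrays) the mice were not sensitised but were challenged with 10 μg OVA on days 12, 13, 14 and 15. In OVA/OVA (6 arrays) the mice were sensitised with 50 μg OVA and challenged in the same way. In OVA/OVA DEX (4 arrays) sensitised and challenged mice also received 3 mg/kg dexamethasone (DEX, a synthetic glucocorticoid) from day 11. Lungs were taken 24 hours after the last challenge. The labels and Results describe the challenge of PBS/PBS mice as PBS, whereas the Methods give OVA as the challenge of every mouse, and the labels were followed here.

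A miRNA is a short RNA that guides Argonaute proteins to messenger RNAs, mainly through its seed, the bases 2 to 8 from the 5′ end, and lowers the output of those messengers. MiR-193b and miR-365 are made from neighbouring hairpins, and a duplicate pair holds miR-193a with a further copy of miR-365. The miR-193b and miR-365 pair is best known from brown fat differentiation, and miR-193a and miR-193b have been studied as restraints on growth in tumours.

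The mature sequences are shown because they set which members can share targets and which loci an array signal can come from. They are given 5′ to 3′ from RefSeq (GRCm38.p6, plus strand), with the seed in capitals.
miR-193a-3p, chr11:79712009-79712030, listed on the array as miR-193-3p: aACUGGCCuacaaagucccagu
miR-193b-3p, chr16:13449570-13449591: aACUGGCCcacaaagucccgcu
miR-365-3p, chr11:79726467-79726488 and chr16:13453895-13453916: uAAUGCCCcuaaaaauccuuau
miR-193a-5p, chr11:79711975-79711996, listed on the array as miR-193-5p: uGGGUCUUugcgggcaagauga
MiR-193a-3p and miR-193b-3p had the same seed, which no other of the 1679 mature mouse miRNAs in the reference carried. Counted from the 5′ end of miR-193a-3p, they differed by U9C, A20G and G21C, and 19 of 22 bases were identical. Whether the array probes separate them fully was not tested. MiR-365-3p had the same sequence at both loci, so its signal is the sum of both clusters. The hairpin of miR-365-2 began 14365 bases after that of miR-193a on chromosome 11, and the hairpin of miR-365-1 began 4238 bases after that of miR-193b on chromosome 16. The 5p arms of miR-193b, miR-365-1 and miR-365-2 were not among the rows taken.

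The authors deposited spot intensities with local background subtracted. Here the probes of a miRNA were summed, signals were divided by an array's 75th percentile of the 206 miRNAs that all 16 arrays detected, and log2 was taken. MiR-193-3p, miR-193b-3p and miR-365-3p were detected on 16 of 16 arrays by 2 probes each, and miR-193-5p on 4 of 16. Before scaling, the summed signal ranged from 251350 to 733489 on OVA/OVA arrays, from 499733 to 638811 on OVA/OVA DEX arrays, from 493063 to 718149 on PBS/OVA arrays and from 793227 to 940050 on PBS/PBS arrays. OVA/OVA replicates 2, 3, 5 and 6 were dimmer than every array of the other groups. All groups were spread over both slides apart from PBS/PBS, whose arrays lay on slide 1. Nothing in the labels says from which animals the arrays came, so p-values measure the spread between arrays. In whole lung, fewer cells of a type and less miRNA per cell cannot be told apart.

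**Figure D1:**
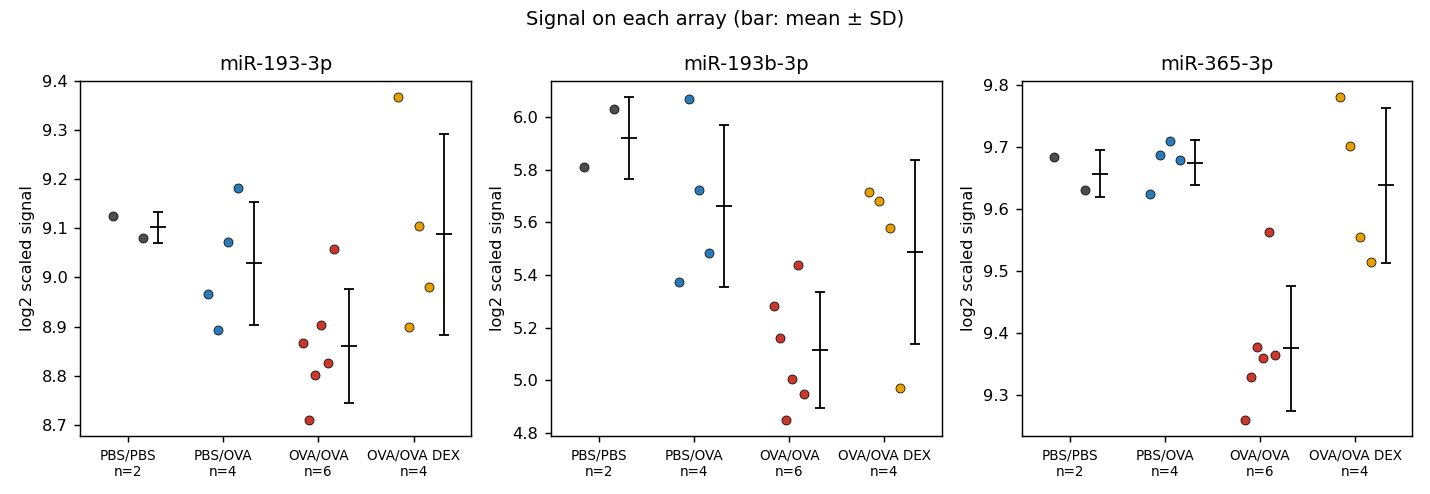
Log2 scaled signal of miR-193-3p, miR-193b-3p and miR-365-3p (vertical axes, each with its own range) on every array of the 4 groups (horizontal axis); points are arrays and bars the mean ± SD. The 6 OVA/OVA arrays of miR-365-3p lie between 9.26 and 9.56, below all PBS/PBS and PBS/OVA arrays.

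MiR-365-3p, the product of both clusters, was lowest in OVA/OVA, and its difference from each other group was about the same size. Its log2 signal was 9.68 and 9.63 in PBS/PBS, and 9.62, 9.69, 9.71 and 9.68 in PBS/OVA. In OVA/OVA it ran from 9.26 to 9.56 with a median of 9.36. In OVA/OVA DEX it was 9.78, 9.70, 9.55 and 9.52. The OVA/OVA arrays lay below every PBS/PBS and PBS/OVA array and overlapped with OVA/OVA DEX, where the OVA/OVA array at 9.56 lay above the 2 lower DEX arrays. In OVA/OVA it fell by 0.28 (SE 0.086, limma adjusted p = 0.0313) relative to PBS/PBS, by 0.30 (SE 0.068, adjusted p = 0.00511) relative to PBS/OVA and by 0.26 (SE 0.068, adjusted p = 0.00712) relative to OVA/OVA DEX. On a linear scale the other groups were 1.21-fold, 1.23-fold and 1.20-fold higher. Both probes were lower in OVA/OVA in all 3 comparisons, by 0.22 to 0.31. Within slide 1 the differences were -0.36, -0.40 and -0.35, and within slide 2 they were -0.23 from PBS/OVA and -0.21 from OVA/OVA DEX. With normexp background correction (offset 50) the calls ended. The differences were then -0.19 (limma adjusted p = 0.111), -0.22 (adjusted p = 0.0881) and -0.18 (adjusted p = 0.128) in this order. The median over all miRNAs was 0.55, 0.31 and 0.16 with normexp, and relative to it miR-365-3p was at -0.74, -0.52 and -0.34. Without scaling the differences were -1.38 (adjusted p = 0.0178), -0.81 (adjusted p = 0.128) and -0.55 (adjusted p = 0.241). By the percentile of all mouse miRNAs they were -0.82 (adjusted p = 0.02), -0.54 (adjusted p = 0.0567) and -0.48 (adjusted p = 0.0398). The median over all miRNAs was -1.11, -0.55 and -0.38 without scaling, and -0.56, -0.28 and -0.31 by this percentile.

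MiR-193b-3p, encoded on chromosome 16, had larger differences between groups and a wider spread within them than miR-365-3p. In PBS/PBS its log2 signal was 5.81 and 6.03. In PBS/OVA it was 5.37, 6.07, 5.72 and 5.48, and in OVA/OVA it ran from 4.85 to 5.44 with a median of 5.08. In OVA/OVA DEX it was 5.72, 5.68, 5.58 and 4.97, so that 1 of the 4 arrays lay within the range of OVA/OVA. The OVA/OVA arrays lay below both PBS/PBS arrays and overlapped with the other groups. In OVA/OVA it fell by 0.81 (SE 0.218, adjusted p = 0.0182) relative to PBS/PBS and by 0.55 (SE 0.173, adjusted p = 0.0309) relative to PBS/OVA. The difference from OVA/OVA DEX was -0.37 (SE 0.173, adjusted p = 0.0824) and did not pass the threshold. The PBS/PBS mean was 1.75-fold and the PBS/OVA mean 1.46-fold that of OVA/OVA. Its 2 probes gave -0.77 and -0.83 against PBS/PBS. Within slide 1 OVA/OVA differed by -0.70 from PBS/PBS, -0.67 from PBS/OVA and -0.12 from OVA/OVA DEX, and within slide 2 by -0.37 from PBS/OVA and -0.57 from OVA/OVA DEX. The OVA/OVA DEX arrays on slide 1 were those at 5.72 and 4.97. With normexp background correction the direction turned, to 0.43 relative to PBS/PBS (adjusted p = 0.137), 0.22 relative to PBS/OVA (adjusted p = 0.333) and 0.13 relative to OVA/OVA DEX (adjusted p = 0.64). The median over all miRNAs was then 0.55, 0.31 and 0.16, and relative to it miR-193b-3p was at -0.12, -0.08 and -0.03. Normexp adds its offset of 50 to every spot before scaling, and the scaled signals of the 2 miR-193b-3p probes ran only from 11.4 to 42.4. How far the offset set this direction was not tested. Other scalings gave a larger fall relative to PBS/PBS. It was -1.41 with quantile normalization (adjusted p = 0.00999), -1.34 by the percentile of all mouse miRNAs (adjusted p = 0.0152) and -1.90 without scaling (adjusted p = 0.0178). The median over all miRNAs was then -0.19, -0.56 and -1.11. Relative to this median miR-193b-3p was at -1.21, -0.79 and -0.79, beside -0.79 with the scaling used here. The difference from OVA/OVA DEX passed with quantile normalization (-0.67, adjusted p = 0.0423), geometric mean scaling (-0.41, adjusted p = 0.0448) and the percentile of all mouse miRNAs (-0.59, adjusted p = 0.0408). Relative to the median over all miRNAs these differences were -0.52, -0.28 and -0.28, beside -0.28 with the scaling used here.

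MiR-193-3p, from the chromosome 11 pair and with the same seed as miR-193b-3p, had differences that did not pass the threshold with the scaling used here and passed with some others. Its log2 signal was 9.12 and 9.08 in PBS/PBS and 8.97, 8.89, 9.07 and 9.18 in PBS/OVA. It ran from 8.71 to 9.06 with a median of 8.85 in OVA/OVA, and was 9.37, 8.90, 9.10 and 8.98 in OVA/OVA DEX. All OVA/OVA arrays lay below the PBS/PBS arrays, and they overlapped with PBS/OVA and OVA/OVA DEX. The OVA/OVA mean minus the PBS/PBS mean was -0.24 (SE 0.119, adjusted p = 0.142). The differences were -0.17 (SE 0.0945, adjusted p = 0.184) from PBS/OVA and -0.23 (SE 0.0945, adjusted p = 0.0564) from OVA/OVA DEX. With geometric mean scaling all 3 passed, at -0.38 (adjusted p = 0.0117), -0.24 (adjusted p = 0.0338) and -0.27 (adjusted p = 0.0122) in the same order. The median over all miRNAs was then -0.16, -0.11 and -0.13. Relative to PBS/PBS it also passed by the percentile of all mouse miRNAs (-0.78, adjusted p = 0.02) and without scaling (-1.34, adjusted p = 0.0178), where the median over all miRNAs was -0.56 and -1.11.

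MiR-193-5p, the other arm of the chromosome 11 hairpin, was at the lower limit of the arrays. It was detected on 2 of 2 PBS/PBS, 1 of 4 PBS/OVA, 1 of 6 OVA/OVA and 0 of 4 OVA/OVA DEX arrays. It was tested only because both PBS/PBS arrays detected it, and all OVA/OVA and OVA/OVA DEX arrays were set to the floor of 2.6 in scaled signal. The fit gave adjusted p = 0.0272 between OVA/OVA and PBS/PBS and adjusted p = 0.233 between OVA/OVA DEX and PBS/PBS. With normexp background correction OVA/OVA was instead higher than PBS/PBS by 0.89 (adjusted p = 0.0282), where the median over all miRNAs was 0.55. No fold is given, since its PBS/PBS signal lay under the mean of the lowest detected signals on the OVA/OVA DEX arrays.

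**Figure D2:**
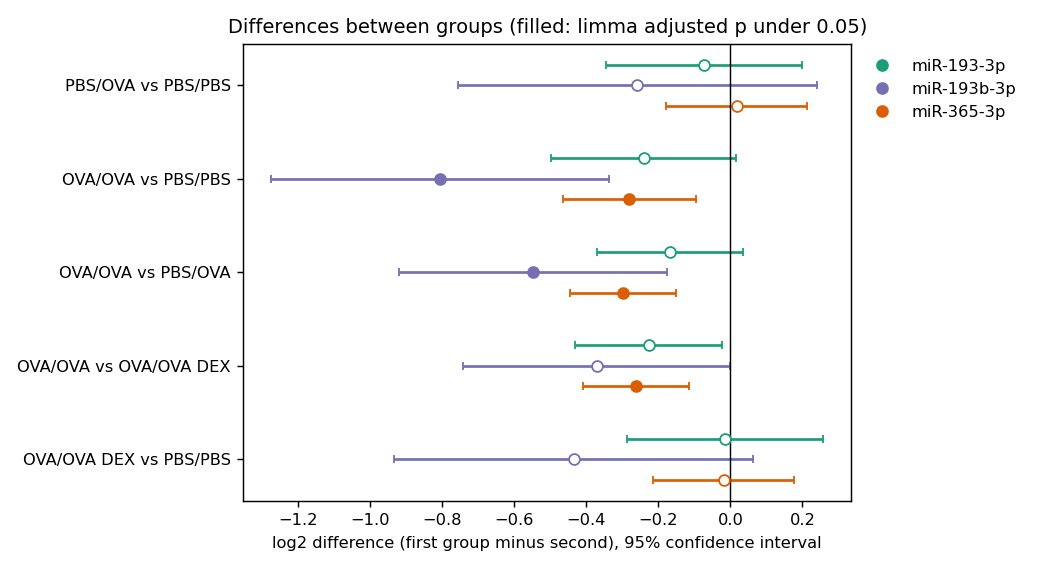
Log2 difference (horizontal axis, first group minus second) for 3 members in the 5 comparisons (vertical axis); bars are 95% confidence intervals from limma and filled points have an adjusted p under 0.05. The filled points are miR-193b-3p at -0.81 and -0.55, and miR-365-3p at -0.28, -0.30 and -0.26.

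Of the 3 members detected on all arrays, 2 were lower in OVA/OVA than in PBS/PBS, 2 than in PBS/OVA and 1 than in the OVA/OVA DEX group at an adjusted p under 0.05. Among all 266 miRNAs tested, the shares lower in OVA/OVA by the same rule were 12%, 16.9% and 32.3%, and the shares past the threshold in either direction were 25.2%, 31.6% and 53.4%. The count against OVA/OVA DEX was thus close to the share among all miRNAs. The groups did not overlap for 3 members against PBS/PBS, where 51.5% of all miRNAs tested did not overlap, for 1 member against PBS/OVA, where 19.9% did not, and for none against OVA/OVA DEX, where 31.2% did not. With this scaling no member also differed by 2-fold, whereas 9.02%, 5.26% and 12.8% of all miRNAs did. Relative to PBS/PBS, miR-193b-3p passed both thresholds with quantile normalization, by the percentile of all mouse miRNAs, without scaling and with the total gene signal. All 3 members did so without scaling, where the median over all miRNAs was -1.11 and thus itself past 2-fold. The share of all miRNAs past both thresholds was not counted in these settings. For miR-193b-3p the total gene signal counted only 1 of its 2 probes on OVA/OVA replicates 2, 3 and 6, and both on all other arrays. With the scaling used here, the median difference over all miRNAs was -0.02, -0.04 and -0.09 in the 3 comparisons.

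The groups outside OVA/OVA were also compared with each other. Between PBS/OVA and PBS/PBS the differences were -0.07 for miR-193-3p, -0.26 for miR-193b-3p and 0.02 for miR-365-3p, with limma adjusted p = 0.997 for each. Between OVA/OVA DEX and PBS/PBS they were -0.01, -0.43 and -0.02, with adjusted p = 0.96, 0.661 and 0.951. The 95% interval of miR-365-3p in the latter comparison was -0.02 ± 0.20, and that of miR-193b-3p was -0.43 ± 0.50. No member passed the threshold in either comparison, where 0.376% and 0% of all miRNAs did. The groups did not overlap for 0 of the 3 members between PBS/OVA and PBS/PBS and for 1, miR-193b-3p, between OVA/OVA DEX and PBS/PBS, where 18.8% and 27.1% of all miRNAs did not. At an unadjusted p under 0.05, limma gave 11 and 18 miRNAs (4.14% and 6.77%), among which was none of the 3 members. The comparisons share arrays, so their values are not independent.

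An exact two-sided permutation test over the arrays of each pair of groups was run for the 4 members in 5 comparisons. For miR-365-3p this exact test gave p = 0.00476 against PBS/OVA, the smallest that 6 against 4 arrays allow, p = 0.0143 against OVA/OVA DEX and p = 0.0357 against PBS/PBS, the smallest that 6 against 2 allow. For miR-193b-3p the exact p was 0.081 against OVA/OVA DEX, 0.0143 against PBS/OVA and 0.0357 against PBS/PBS. For miR-193-3p it was 0.0476, 0.0714 and 0.0357 in the same order. With 4 against 2 arrays the exact test cannot go below p = 0.0667. After Benjamini-Hochberg adjustment over these 20 exact tests the lowest value was 0.0952, so that no difference passed in this test. Against PBS/PBS none could have passed, because the smallest p allowed there stays above 0.05 under this adjustment.

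**Figure D3:**
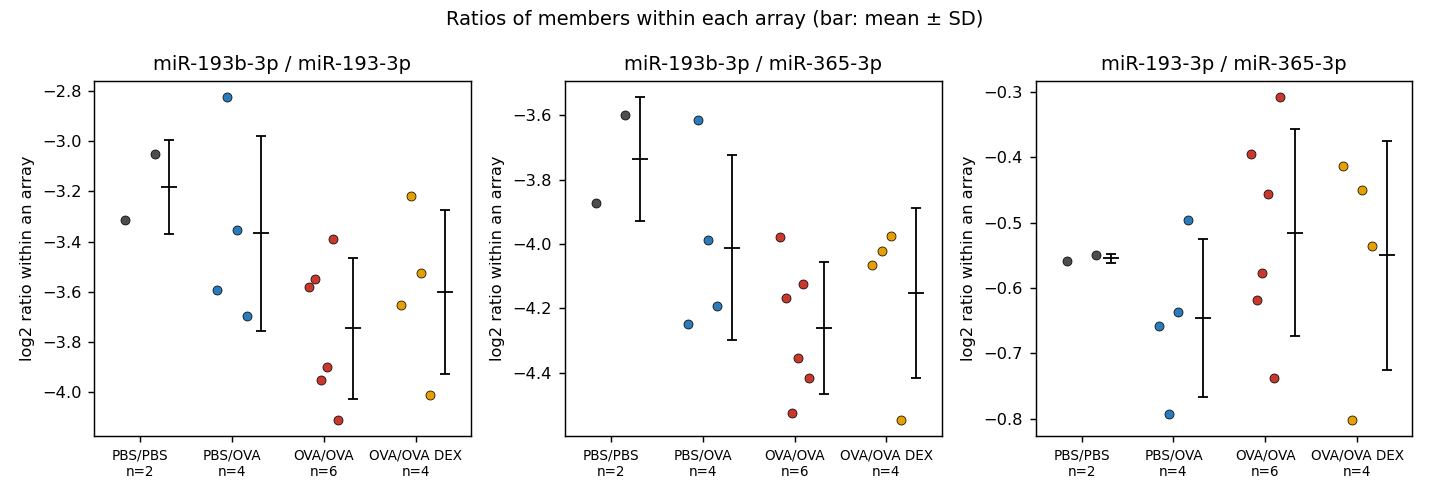
Log2 ratio of 2 members within an array (vertical axes) by group (horizontal axis); points are arrays and bars the mean ± SD. The ratio of miR-193b-3p to miR-365-3p has its highest group mean, -3.74, in PBS/PBS, and the PBS/OVA arrays run from -4.25 to -3.62.

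Ratios between members within an array do not depend on a scaling factor per array, though they do on the background correction, and show only whether 2 members changed unequally. The log2 ratio of miR-193b-3p to miR-365-3p, which share the chromosome 16 cluster, was -3.74 ± 0.19 (SD, n = 2) in PBS/PBS. It was -4.01 ± 0.29 (n = 4) in PBS/OVA, -4.26 ± 0.21 (n = 6) in OVA/OVA and -4.15 ± 0.27 (n = 4) in OVA/OVA DEX. The difference between OVA/OVA and PBS/PBS was -0.53 (exact permutation p = 0.0357, adjusted p = 0.457 over 15 ratio comparisons). The ratio of miR-193b-3p to miR-193-3p differed by -0.57 in this comparison (exact permutation p = 0.0714, adjusted p = 0.457). The ratio of miR-193-3p to miR-365-3p, which share the chromosome 11 cluster, differed by 0.04 (exact permutation p = 0.786, adjusted p = 0.842), with group means between -0.65 and -0.52. None of the 15 ratio comparisons passed after adjustment, and with 2 arrays those against PBS/PBS could not have passed. With normexp background correction the direction turned between OVA/OVA and PBS/PBS, to 0.62 for miR-193b-3p to miR-365-3p and 0.51 for miR-193b-3p to miR-193-3p. Between OVA/OVA and OVA/OVA DEX these ratios differed by -0.11 and -0.14 over all arrays, by 0.23 and 0.27 within slide 1 and by -0.36 and -0.46 within slide 2. The OVA/OVA DEX arrays on slide 1 were replicates 1 and 4, and replicate 4 is the array flagged below. Their ratios of miR-193b-3p were -4.06 and -4.55 to miR-365-3p, and -3.65 and -4.01 to miR-193-3p.

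MiRNAs whose pattern over the 16 arrays was most like that of a member were sought among the 203 other miRNAs detected on all arrays. These arrays share the scaling and the 4 groups, and the correlations are descriptions. MiR-365-3p was most like miR-125b-5p (Pearson r = 0.95), miR-199a-3p (r = 0.94) and miR-199b-5p (r = 0.92). After the group means were taken out, these values were 0.84, 0.87 and 0.76. MiR-193b-3p was most like miR-99a-5p and miR-125b-5p (r = 0.81 for each) and miR-183-5p (r = 0.79). MiR-193-3p was most like miR-338-3p and miR-24-2-5p (r = 0.81 for each) and miR-3107-5p (r = 0.75). Between members, r was 0.77 for miR-193b-3p with miR-365-3p, 0.63 for miR-193-3p with miR-365-3p and 0.41 for miR-193-3p with miR-193b-3p. Within groups these were 0.51, 0.26 and -0.04.

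Marker miRNAs of other tissues moved in the same comparisons, and their part in the results for the members was not tested. Of 4 striated muscle miRNAs tested, of 7 on the array, 2 were lower in OVA/OVA than in PBS/PBS, 3 than in PBS/OVA and 3 than in the OVA/OVA DEX group. Among them miR-133b-3p fell by 1.11, 0.90 and 0.93 (limma adjusted p = 0.0324, 0.0246 and 0.0123). The summed scaled signal of this list was 237 to 573 on OVA/OVA arrays and 539 to 837 over those of the other groups. Of 6 haematopoietic miRNAs tested, 4, 6 and 5 were higher in OVA/OVA. Among them miR-142-3p was higher by 0.92, 1.03 and 1.05 (adjusted p = 0.00653, 0.00048 and 0.000188). The haematopoietic sum was 32861 to 48308 in OVA/OVA and 16271 to 27147 over the other groups. Of 4 fibroblast miRNAs tested, 0, 2 and 3 were lower, and their sum was 5981 to 7166 in OVA/OVA and 7034 to 8416 over the other groups. Both endothelial miR-126 rows were lower than in PBS/OVA and in the OVA/OVA DEX group, and neither passed against PBS/PBS. All 3 smooth muscle miRNAs were lower against OVA/OVA DEX, and none passed against PBS/PBS or PBS/OVA. Among all 266 miRNAs tested, 12%, 16.9% and 32.3% were lower in OVA/OVA by this rule. In either direction 25.2%, 31.6% and 53.4% passed.

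The miRNAs linked to brown fat and adipocyte differentiation, the setting in which the miR-193b and miR-365 pair is best known, did not move one way. Of 21 tested, 2 were higher and 4 lower against PBS/PBS, 2 higher and 4 lower relative to PBS/OVA, and 3 higher and 8 lower relative to OVA/OVA DEX. Their median differences were -0.13, -0.11 and -0.31, beside -0.02, -0.04 and -0.09 over all miRNAs tested. By the same rule 12%, 16.9% and 32.3% of all miRNAs tested were lower in OVA/OVA. The 4 of the list with the highest mean signal, miR-26a-5p, miR-26b-5p, miR-27a-3p and miR-30c-5p, passed against OVA/OVA DEX. They were lower there by 0.50, 0.48, 0.26 and 0.86, whereas 3 others of the list were higher. MiR-143 is also in the smooth muscle list.

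**Figure D4:**
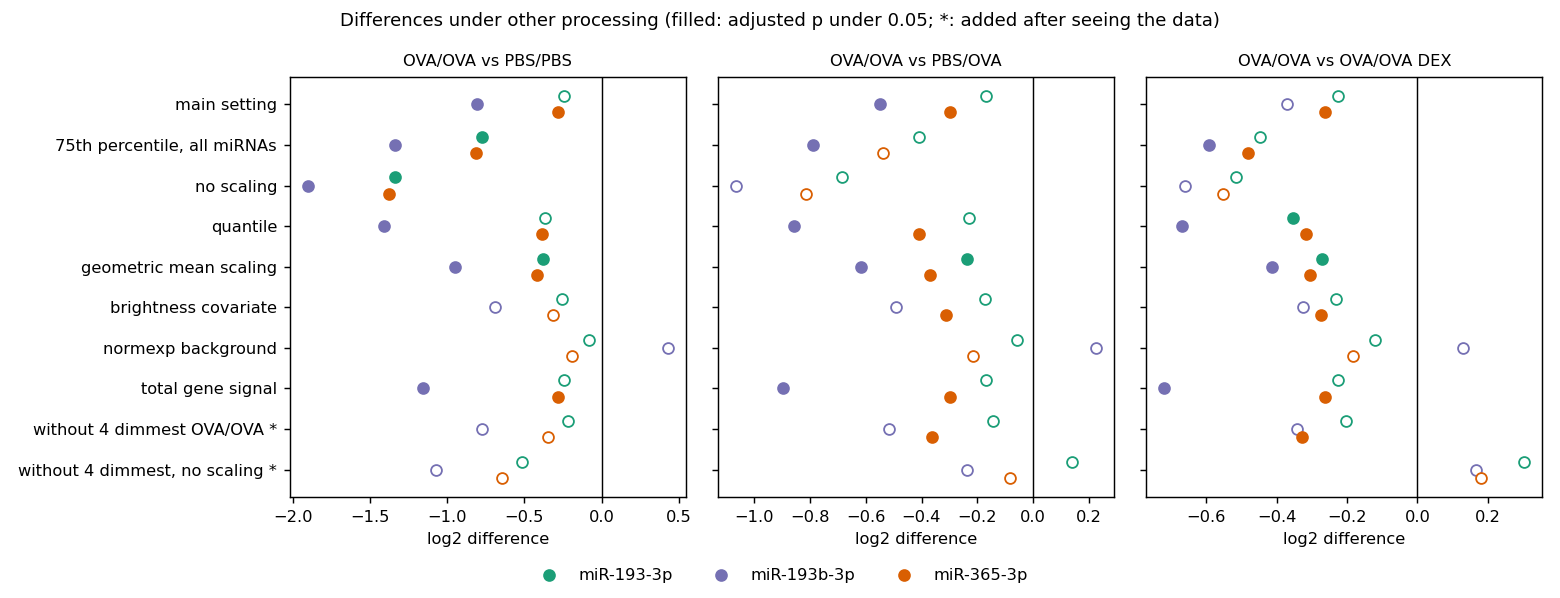
Log2 difference (horizontal axes) of 3 members under 10 ways of processing (vertical axis) in the 3 comparisons with OVA/OVA; filled points have an adjusted p under 0.05 and an asterisk marks settings chosen after the data had been seen. MiR-365-3p stays below 0 except against OVA/OVA DEX without scaling and without the 4 dimmest arrays, where it is 0.18, and miR-193b-3p turns above 0 with normexp. The median over all miRNAs is also above 0 with normexp.

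The calls against PBS/PBS, and that of miR-193b-3p against PBS/OVA, were lost with brightness as a covariate and without some single arrays. Those of miR-365-3p against PBS/OVA and OVA/OVA DEX held whichever array was left out (highest limma adjusted p = 0.0202 and 0.0249). They were lost with normexp and without scaling. With array brightness as a covariate, miR-365-3p differed by -0.31 from PBS/OVA (limma adjusted p = 0.0112) and by -0.27 from OVA/OVA DEX (adjusted p = 0.0114). Neither miR-365-3p (adjusted p = 0.139) nor miR-193b-3p (adjusted p = 0.191) then passed against PBS/PBS. Both PBS/PBS arrays were brighter than every array of the other groups, so this covariate cannot separate brightness from group there. Without the 4 dimmest OVA/OVA arrays, a setting chosen after the data had been seen, miR-365-3p gave -0.36 against PBS/OVA (adjusted p = 0.0253) and -0.33 against OVA/OVA DEX (adjusted p = 0.0251), and miR-193b-3p passed in no comparison. Without the 4 dimmest arrays and without scaling, also chosen afterwards, no member passed with OVA/OVA in any comparison. The differences of the 3 members from OVA/OVA DEX were 0.17 to 0.30 in that setting (adjusted p = 0.295 to 0.702). The median over all miRNAs was then 0.38 higher as well, and relative to it miR-365-3p was at -0.20. In this setting all 3 members were lower in OVA/OVA DEX than in PBS/PBS, with differences of -0.82 to -1.24 (adjusted p = 0.0095 to 0.0105), where the median over all miRNAs was -0.72. Without either PBS/PBS array no member passed against PBS/PBS. Either omission leaves a single PBS/PBS array. Leaving out each array in turn, OVA/OVA minus PBS/PBS ran from -0.92 to -0.70 for miR-193b-3p and from -0.32 to -0.25 for miR-365-3p. The call of miR-193b-3p against PBS/OVA was lost without PBS/OVA replicate 2 or 3 or OVA/OVA replicate 3 or 6, with limma adjusted p = 0.0567 to 0.0772. That of miR-365-3p against PBS/PBS was also lost without OVA/OVA replicate 2 (adjusted p = 0.0509).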

How the data were processed

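MiRNA signals came from 16 Agilent 1-colour arrays on 2 slides. The authors deposited the intensity of each spot from Feature Extraction 10.7.3.1, less the local background and not normalized across arrays, and a table of processed log2 values whose scaling is not given in the sources used here. No spot was saturated.

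Outlier and control spots were left out, spots averaged within probes and probes summed within miRNAs. Scaling used the 75th percentile of an array among the 206 miRNAs that every array detected. Scaled signals were raised to a floor of 2.6, the median over arrays of the lowest positive signal with a detection flag. The word positive was added after values had been seen, and among the members it touches miR-193-5p alone. Group means were fitted with limma 3.58.1 in R 4.3.3 over all arrays, with Benjamini-Hochberg adjustment over the 266 miRNAs that all arrays of 1 or more groups detected. A difference passed at an adjusted p under 0.05, and 2-fold differences were counted separately. Exact permutation tests used Python 3.11.15 with numpy 2.4.6 and pandas 2.3.3. The fit was tested on simulated data.

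Members passing were counted over the 3 detected on all arrays, which was decided after detection had been seen, and miR-193-5p is described alone. The members and lists were chosen with earlier results of these data known. All members were named, with the 3 miRNAs most correlated with each and up to 4 of a list with the highest mean signal. Lists of red cells, epithelium and ciliated epithelium were also counted: OVA/OVA, set against PBS/PBS, then PBS/OVA, then OVA/OVA DEX, was lower for 0, 0 and 2 of 2 red cell miRNAs and higher for none, lower for 3, 0 and 3 and higher for 0, 0 and 2 of 6 ciliated miRNAs, and lower for 0, 0 and 1 and higher for 1, 1 and 2 of 8 epithelial miRNAs. Among the ciliated miRNAs, miR-449a-5p was higher than in OVA/OVA DEX by 2.04 (limma adjusted p = 8.77e-05). Other scalings, background corrections, filters, blocks, tests and the omission of each array were tried, and 2 settings without the dimmest arrays were added after seeing the data. The number of arrays limits precision.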

Additional observations from a re-analysis of the deposited data

Results flagged for a closer look

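Among 18 sets of values, each a member or ratio in a group of 4 or 6 arrays, 1 held an array far from the others, where chance gives about 1 in 20. The log2 ratio of miR-193b-3p to miR-365-3p was -4.55 on OVA/OVA DEX replicate 4, and -4.06 to -3.98 on the other 3 arrays of that group. MiR-193b-3p was at 4.97 on this array and at 5.58 to 5.72 on the others. Its 2 probes had scaled signals of 16.1 and 15.2 there, and of 17.3 to 21.2 and 30.5 to 31.4 on the others. The 2 probes of miR-193-3p, and those of miR-365-3p, also lay closer together in log2 on this array than on any other array. Without this array, miR-193b-3p was lower in OVA/OVA than in OVA/OVA DEX by a log2 difference of -0.54 (limma adjusted p = 0.0126).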

How the results depend on the processing

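The counts of members past the threshold (for OVA/OVA, 2 relative to PBS/PBS, 2 relative to PBS/OVA and 1 relative to OVA/OVA DEX, all lower) changed with the processing, and the cause was not tested. In this order they were 0, 0 and 0 with normexp or with a 2-fold requirement, 0, 1 and 0 by the exact Mann-Whitney test, 0, 1 and 1 with brightness as a covariate or without the 4 dimmest OVA/OVA arrays, and 0, 0 and 0 without these arrays and without scaling, where OVA/OVA DEX against PBS/PBS gave 3 in place of 0. They were 3, 0 and 0 without scaling alone, 3, 1 and 2 by the percentile of all miRNAs, 3, 3 and 3 with geometric mean scaling, 2, 2 and 3 with quantile normalization, 2, 2 and 2 with the intensity trend or the total gene signal, 2, 1 and 1 with all mouse miRNAs tested, and 1, 2 and 1 with only the compared groups. Leaving out each array in turn gave 0 to 2, 1 to 2 and 1 to 3 in the same order.

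Replicate numbers were not treated as pairs: of 18 same-numbered pairs 4 correlated over 0.1 (r from -0.59 to 0.38). Differently numbered pairs were not set beside them, so this check cannot exclude a pairing. With the replicate block 1 member passed against PBS/PBS and 2 against OVA/OVA DEX.

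Without scaling, the median over all miRNAs moved to -1.11, -0.55 and -0.38 in this order. By the percentile of all miRNAs it was -0.56, -0.28 and -0.31, and with geometric mean scaling -0.16, -0.11 and -0.13. With normexp it was 0.55, 0.31 and 0.16, and 0.24 for PBS/OVA and 0.34 for OVA/OVA DEX against PBS/PBS.

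For miR-365-3p, PBS/OVA minus PBS/PBS turned to -0.28 by the percentile of all miRNAs, -0.56 without scaling, with or without the 4 dimmest arrays, -0.053 with geometric mean scaling and -0.025 with the deposited values (-0.0091 to 0.044 leaving out each array). With normexp, miR-193b-3p turned to 0.20 for PBS/OVA and 0.30 for OVA/OVA DEX against PBS/PBS, and to 0.43, 0.22 and 0.13 for OVA/OVA in the order above. With normexp, miR-193-3p turned to 0.037 for OVA/OVA DEX against PBS/PBS. Without the 4 dimmest arrays and without scaling, OVA/OVA minus PBS/OVA was 0.14 for miR-193-3p, and OVA/OVA minus OVA/OVA DEX was 0.30, 0.17 and 0.18 for miR-193-3p, miR-193b-3p and miR-365-3p. Leaving out each array, OVA/OVA DEX minus PBS/PBS ran from -0.11 to 0.048 for miR-193-3p and from -0.066 to 0.022 for miR-365-3p.

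With normexp the ratio of miR-193b-3p to miR-193-3p turned to 0.23, 0.51, 0.28, 0.25 and 0.26, and that to miR-365-3p to 0.18, 0.62, 0.44, 0.31 and 0.31, first for PBS/OVA against PBS/PBS, then for the 3 comparisons of OVA/OVA in the order above, and last for OVA/OVA DEX against PBS/PBS. Leaving out each array, the ratio of miR-193-3p to miR-365-3p ran from -0.0019 to 0.084 for OVA/OVA against PBS/PBS, from -0.049 to 0.0805 against OVA/OVA DEX and from -0.041 to 0.089 for OVA/OVA DEX against PBS/PBS.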

Other observations

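The deposited processed table and the scanner output differed for miR-193b-3p and for miR-193-5p. Up to a constant per array, they matched within 0.15 on the log2 scale on all 16 arrays for miR-193-3p and miR-365-3p, and on 13 of 16 arrays for miR-193b-3p. On OVA/OVA replicates 2, 3 and 6 the table lists miR-193b-3p at 1.4, 1.3 and 1.7, where the scanner output gives -2.90, -3.42 and -3.12, and its other 13 values lie between -2.5 and -1.3. The deposited row named miR-193 lists 1.3, 1.3 and 1.7 on these 3 arrays. On the same 3 arrays the total gene signal of Feature Extraction for miR-193b-3p equals the signal of 1 of its 2 probes, and on the other arrays the sum of both. On these arrays the total gene signals were 11.6, 5.98 and 6.02. With the total gene signal in place of the summed probes, miR-193b-3p differed by -1.15 from PBS/PBS, -0.90 from PBS/OVA and -0.72 from OVA/OVA DEX (limma adjusted p = 0.0304, 0.0287 and 0.0387). MiR-193-5p matched on 0 of the 4 arrays that detected it. There the deposited row named miR-193* lists 1.5 to 1.8, where the scanner output gives -5.72 to -5.49. On each of these arrays that row holds the same value as the row named miR-193. The total gene signal of miR-193-5p on these arrays counts 1 of its 4 probes.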
